A study of Homo sapiens with 4 samples.

Results

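Arginine and polyamine metabolism was followed through 10 genes in HK2 cells, a human proximal tubule epithelial line immortalised with papillomavirus oncogenes. The genes were chosen by name, for their place in arginine synthesis, ornithine use and the polyamine pathway, and they were picked from a series whose RPKM values for TGF-β1 against control were already known. All their values in that comparison are therefore a description, and the p-values given are the rows of a fit over the whole table. All 10 were found among the 25609 genes of the deposited table, and all 10 passed the filter on low values that left 16590 genes for testing. The 4 libraries comprised 2 TGF-β1 samples (HK2TGFb_1 and HK2TGFb_2) and 2 control samples (HK2_1 and HK2_2), all of genotype WT. The labels carry the same protocol for all 4: serum starvation for 24 h, then TGF-β1 at 20 ng/mL for 24 h, with the uridine analogue 4SU at 100 μM over the final 20 h. Controls were taken to have had these steps without TGF-β1, and the sources used here do not say whether RNA carrying 4SU was purified. The line is 1 immortalised line, and no label ties the replicates to separate cultures. The p-values therefore reflect the spread among these 4 libraries alone, which may be technical.

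Argininosuccinate synthase and argininosuccinate lyase make arginine from citrulline and aspartate, a step for which the proximal tubule is a main site in the body. Arginase splits arginine into urea and ornithine. Ornithine then goes either through ornithine aminotransferase towards glutamate and proline, or through ornithine decarboxylase to putrescine, from which spermidine and spermine are built. Polyamine levels are held by feedback: antizyme binds ornithine decarboxylase and sends it to the proteasome, antizyme inhibitor releases it, and an acetyltransferase starts the breakdown of spermidine and spermine.

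Antizyme is made only when the ribosome slips by +1 on the OAZ1 message, a shift that polyamines promote, and that site is shown because it ties OAZ1 transcript to antizyme protein. In GENCODE 29, 2 coding models of OAZ1 leave out the base at position 2271443 of chromosome 19 (hg38), with 68 codons before it and 160 after it in the longest. The site lies in a coding exon at chr19:2271419-2271467 on the plus strand. Capitals mark the codon before the skipped base, the stop codon TGA that starts with the skipped base, and nothing else.
OAZ1 frameshift site: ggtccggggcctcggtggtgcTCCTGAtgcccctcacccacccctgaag

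Promoter windows from RefSeq (GRCh38.p14, 250 bases before to 50 after the start) are shown for ASS1 and ASL, which share a pathway and both rose with TGF-β1. ODC1 is shown because 1 of its 2 windows holds the most copies of the E-box CACGTG. For ASS1 and ODC1, which have 2 windows each, the one with CACGTG is shown, and the other holds 0 copies. Capitals mark CACGTG, the word bound by MYC and related factors. The ASS1 window is chr9:130444711-130445010 (plus strand), that of ASL chr7:66075569-66075868 (plus strand) and that of ODC1 chr2:10447963-10448262 (minus strand).
ASS1: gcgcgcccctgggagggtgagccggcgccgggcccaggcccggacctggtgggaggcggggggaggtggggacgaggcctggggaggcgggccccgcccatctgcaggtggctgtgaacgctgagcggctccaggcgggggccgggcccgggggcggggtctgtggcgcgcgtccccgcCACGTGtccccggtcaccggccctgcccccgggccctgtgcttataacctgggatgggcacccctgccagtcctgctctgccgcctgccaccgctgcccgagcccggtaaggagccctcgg
ASL: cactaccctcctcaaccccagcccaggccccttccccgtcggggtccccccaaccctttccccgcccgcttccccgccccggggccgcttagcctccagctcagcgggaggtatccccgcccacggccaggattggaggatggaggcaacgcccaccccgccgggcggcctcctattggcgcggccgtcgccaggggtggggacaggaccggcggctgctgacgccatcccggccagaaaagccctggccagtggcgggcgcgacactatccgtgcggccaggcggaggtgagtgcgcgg
ODC1: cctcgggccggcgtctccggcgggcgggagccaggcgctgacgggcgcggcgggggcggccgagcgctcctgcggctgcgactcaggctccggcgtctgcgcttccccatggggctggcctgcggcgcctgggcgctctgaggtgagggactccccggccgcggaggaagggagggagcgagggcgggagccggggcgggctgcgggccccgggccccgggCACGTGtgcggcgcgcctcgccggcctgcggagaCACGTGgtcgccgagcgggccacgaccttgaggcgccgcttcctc

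RefSeq windows were matched for 9 of the 10 genes, 11 windows in all, since ASS1 and ODC1 each have 2 annotated starts. CACGTG occurred in 3 of the 11 windows, 1 each of ASS1, ODC1 and SRM, and in 7.23% of all 34943 windows of the same length. In ASS1 it lay 71 to 66 bases before 1 of the 2 starts. In ODC1 it lay 29 to 24 bases before 1 of the 2 starts, with another copy 5 to 10 bases past that start. The window of the other start held 0 copies in both genes. In SRM it lay 199 to 194 bases before the start. The word TGACGTCA, bound by CREB and ATF factors, occurred in ARG2, at 172 to 165 and at 64 to 57 bases before the start, and in 1.84% of all windows. The AP-1 word TGACTCA and the SMAD words CAGACA and GTCTAGAC, searched on both strands like the others (CACGTG and TGACGTCA read the same on both), were in none of these windows, against 4.96%, 16.9% and 0.203% of all windows. The windows were rich in G and C, from 66.0% in SAT1 to 82.0% in SRM, with a median of 58.7% over all windows. A match is a description of letters, not of binding.

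Between 3333029 and 5446039 whole reads were recovered per library from the deposited values. SMAD7 and PMEPA1, known targets of the cytokine, averaged 37.6 and 329 RPKM with TGF-β1 and 8.65 and 35.6 RPKM in controls. Of 12 proximal tubule markers, only PAX8 (15.1 RPKM with TGF-β1 and 43.5 RPKM in controls) and GGT1 (17.9 and 20.0 RPKM) reached the filter. CUBN had 1 or 2 reads in each library, so the labelled cell type rests on few markers at this depth. Summed fibroblast markers ran from 7.06 to 9.02 RPKM with TGF-β1 and from 12.4 to 13.0 RPKM in controls, nearly all from LUM, and COL1A2 had 0 reads throughout. Of the other marker lists, 1 of 7 fibroblast, 0 of 6 endothelial, 1 of 7 leukocyte and 0 of 5 distal nephron markers reached the filter. The endothelial markers CDH5 and VWF had 0 reads in all libraries, leukocyte markers summed to 1.02 and 2.46 RPKM with TGF-β1 and 1.91 and 2.17 RPKM in controls, and distal nephron markers summed to at most 0.0619 RPKM. The part of these levels in the results was not tested, and in bulk RNA fewer cells and less RNA per cell cannot be told apart.

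Of the 10 genes, 4 rose with TGF-β1 (ASS1, ASL, OAZ1 and SAT1) and 0 fell, with limma p-values adjusted by Benjamini-Hochberg over the 16590 genes and called below 0.05. Of all tested genes 6.12% rose and 3.0% fell, 9.12% in all, and nothing is read from the count of 4 because the genes were chosen with this comparison known. Before adjustment, 7 of the 10 genes were under 0.05, as were 4141 of the 16590 tested genes, and ODC1 was the only one of those with a lower mean. In 8 of the 10 genes the groups did not overlap, 6 with TGF-β1 higher and 2 with TGF-β1 lower, against 54.1% of all tested genes whose groups did not overlap. The median log2 fold change was 0.28 over the 10 genes and 0.03 over all tested genes, all on the log2(RPKM + 0.5) scale, which understates the change of weakly expressed genes.

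**Figure D1:**
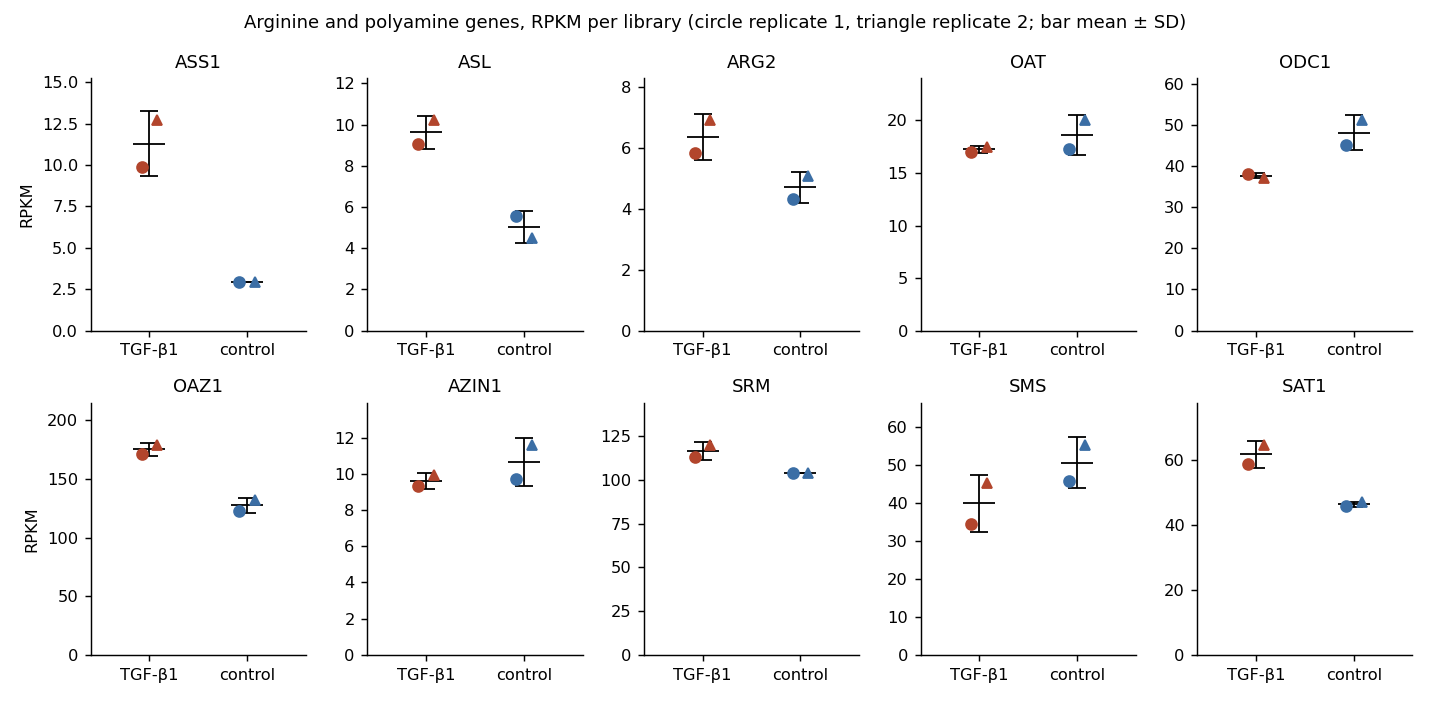
RPKM of each gene (y axis, from 0) in the TGF-β1 and control libraries, circles for replicate 1 and triangles for replicate 2, with mean ± SD (n = 2 each). ASS1 and ASL stand apart most, with ASS1 at 9.90 and 12.7 RPKM with TGF-β1 against 2.95 and 2.96 RPKM in controls.

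ASS1 (ENSG00000130707.17, hg38 chromosome 9, 130444929 to 130501274, plus strand), the argininosuccinate synthase gene and the rate-limiting step of arginine recycling, had 9.90 and 12.7 RPKM in the TGF-β1 libraries and 2.95 and 2.96 RPKM in the control libraries. Behind these values stood 125 and 182 reads with TGF-β1 against 30 and 42 reads in controls. Both TGF-β1 libraries lay far above both controls, and the 2 controls were nearly equal while the 2 TGF-β1 libraries differed by more. The mean was 11.3 ± 2.0 RPKM with TGF-β1 and 2.96 ± 0.011 RPKM in controls (SD, n = 2 each), a 3.82-fold rise with a log2 fold change of 1.76 (SE 0.16, 95% confidence interval 1.36 to 2.16, adjusted p = 0.00601, limma). The size of this change was above that of 98.8% of tested genes, and the call held under all 14 alternative settings, with log2 fold changes of 1.59 to 1.93. Of the 50-base words in its transcripts, 5.55% also occur in 11 other genes, among them the pseudogenes ASS1P9 and ASS1P10, so a few reads may belong elsewhere.

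ASL (ENSG00000126522.16, chromosome 7, 66075798 to 66093558, plus strand), which cleaves argininosuccinate to arginine and fumarate, had 9.07 and 10.2 RPKM with TGF-β1 and 5.58 and 4.49 RPKM in controls, from 120 and 153 reads against 60 and 67 reads. The groups did not overlap. Its 1.91-fold rise, to 9.64 ± 0.80 RPKM with TGF-β1 against 5.04 ± 0.77 RPKM in controls (SD, n = 2 each), gave a log2 fold change of 0.88 (SE 0.15, interval 0.50 to 1.25, adjusted p = 0.0289, limma). The call was lost when TGF-β1 replicate 1 was left out (adjusted p = 0.071), TGF-β1 replicate 2 (0.123) or control replicate 2 (0.0545), and when scaled to total recovered reads (0.0536), with the log2 fold change between 0.71 and 1.02 over all 14 settings. The locus AC068533.4 overlaps 17.6% of its exon bases on the same strand, and reads there cannot be assigned firmly to ASL.

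ARG2 (ENSG00000081181.7, chromosome 14, 67619798 to 67651720, plus strand), the mitochondrial arginase of kidney, had 5.82 and 6.89 RPKM with TGF-β1 and 4.33 and 5.06 RPKM in controls. The TGF-β1 libraries lay above the controls, on 58 and 78 reads against 35 and 57 reads, and the difference did not pass (log2 fold change 0.40, SE 0.15, interval 0.01 to 0.79, adjusted p = 0.186, limma). VTI1B, a vesicle SNARE gene on the opposite strand, overlaps 37.4% of the exon bases of ARG2 and had 355 and 424 reads with TGF-β1 and 250 and 391 reads in controls. The library kit was directional, but the sources used here do not give the strand setting of the counting, so reads in the overlap cannot be told apart.

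OAT (ENSG00000065154.11, chromosome 10, 124397303 to 124418976, minus strand), ornithine aminotransferase of the mitochondrial matrix, had 17.0 and 17.5 RPKM with TGF-β1 and 17.3 and 20.0 RPKM in controls. The groups overlapped. The log2 fold change of -0.10 had an interval of -0.36 to 0.15 (adjusted p = 0.579, limma).

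ODC1 (ENSG00000115758.12, chromosome 2, 10439968 to 10448504, minus strand) encodes ornithine decarboxylase, the short-lived enzyme that commits ornithine to polyamines. It had 38.1 and 37.2 RPKM with TGF-β1 and 45.1 and 51.1 RPKM in controls, from 469 and 520 reads against 453 and 712 reads. Both TGF-β1 libraries were below both controls, and the controls were further from each other than the TGF-β1 libraries were. The mean was 37.7 ± 0.58 RPKM with TGF-β1 and 48.1 ± 4.3 RPKM in controls (SD, n = 2 each), a log2 fold change of -0.35 (SE 0.08, interval -0.56 to -0.13) that did not pass with the authors' scaling (adjusted p = 0.0705, limma). It passed as lower with median-of-ratios scaling (log2 -0.39, adjusted p = 0.04), upper-quartile scaling (-0.41, 0.0318), quantile normalisation (-0.52, 0.0184) and scaling by total recovered reads (-0.52, 0.018). The call for ODC1 thus depended on how the libraries were scaled, while the sign was the same under each of these scalings. The other settings either leave the fold change as it is or cannot turn its sign while the groups do not overlap.

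OAZ1 (ENSG00000104904.12, chromosome 19, 2269509 to 2273490, plus strand), antizyme 1, was the most abundant of the 10 genes per length, at 171 and 179 RPKM with TGF-β1 and 123 and 132 RPKM in controls. These values rested on 2436 and 2891 reads against 1430 and 2130 reads, and the groups did not overlap. OAZ1 rose 1.37-fold, to 175 ± 5.7 RPKM with TGF-β1 against 127 ± 6.5 RPKM in controls (SD, n = 2 each), with a log2 fold change of 0.45 (SE 0.07, interval 0.29 to 0.62, adjusted p = 0.0203, limma). The call was lost without TGF-β1 replicate 2 (adjusted p = 0.0783), without control replicate 1 (0.0586), and after quantile normalisation (log2 0.18, adjusted p = 0.069). These are levels of the transcript, and use of the frameshift site printed above was not analysed here. Same-strand locus AC005258.1 overlaps 6.40% of its exon bases.

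AZIN1 (ENSG00000155096.13, chromosome 8, 102826357 to 102893864, minus strand), the antizyme inhibitor, an inactive relative of ornithine decarboxylase that takes up antizyme, had 9.30 and 9.93 RPKM with TGF-β1 and 9.71 and 11.6 RPKM in controls. The groups overlapped (log2 fold change -0.14, SE 0.12, interval -0.45 to 0.18, adjusted p = 0.55, limma). At 9.62 RPKM with TGF-β1 and 10.7 RPKM in controls, its transcript was far less abundant per length than that of OAZ1.

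SRM (ENSG00000116649.9, chromosome 1, 11054584 to 11060024, minus strand), spermidine synthase, had 113 and 120 RPKM with TGF-β1 and 104 and 104 RPKM in controls. The TGF-β1 libraries were the higher, by 1.12-fold, and the difference did not pass (log2 0.16, interval 0.01 to 0.31, adjusted p = 0.182, limma). Its sign turned with scaling by total recovered reads (-0.02) and after quantile normalisation (-0.08).

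SMS (ENSG00000102172.15, X chromosome, 21940573 to 21994835, plus strand), spermine synthase, had 34.6 and 45.3 RPKM with TGF-β1 and 45.9 and 55.4 RPKM in controls. The groups did not overlap, but the higher TGF-β1 library was close to the lower control, and the difference did not pass (log2 -0.35, SE 0.16, interval -0.75 to 0.06, adjusted p = 0.262, limma). Of its 50-base words, 20.0% also occur in AL354714.2, which had 5 and 8 reads with TGF-β1 and 2 and 4 reads in controls, beside 310 and 460 reads against 336 and 562 reads counted for SMS.

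SAT1 (ENSG00000130066.16, X chromosome, 23783173 to 23786226, plus strand), spermidine/spermine N1-acetyltransferase, the inducible enzyme that marks polyamines for oxidation or export, had 58.8 and 64.7 RPKM with TGF-β1 and 45.9 and 47.0 RPKM in controls. Reads numbered 610 and 760 with TGF-β1 and 388 and 551 in controls, and the groups did not overlap. SAT1 rose 1.33-fold, to 61.7 ± 4.1 RPKM with TGF-β1 against 46.4 ± 0.78 RPKM in controls (SD, n = 2 each; log2 0.41, SE 0.07, interval 0.22 to 0.59, adjusted p = 0.0344, limma). Without the variance trend ASS1 was the only one of the 4 still called. The SAT1 call was lost whichever library was left out: without TGF-β1 replicate 1 (adjusted p = 0.0612), TGF-β1 replicate 2 (0.147), control replicate 1 (0.0845) or control replicate 2 (0.0689). It was also lost with scaling by total recovered reads (log2 0.23, adjusted p = 0.0865) and after quantile normalisation (log2 0.21, 0.108).

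**Figure D2:**
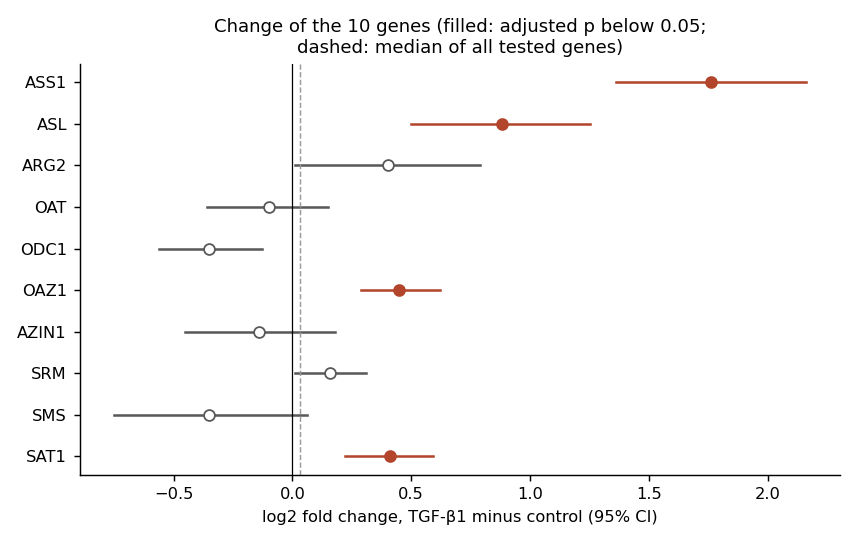
Log2 fold change (x axis, TGF-β1 minus control) of each gene with its 95% confidence interval. Filled points passed an adjusted p below 0.05, open points did not, the dashed line is the median of all tested genes (0.03), and ASS1 lies furthest from it at 1.76.

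By group means the levels with TGF-β1 ran from OAZ1 (175 RPKM) through SRM (117), SAT1 (61.7), SMS (39.9), ODC1 (37.7), OAT (17.3), ASS1 (11.3), ASL (9.64), AZIN1 (9.62) and ARG2 (6.36). In controls the order was OAZ1 (127 RPKM), SRM (104), SMS (50.7), ODC1 (48.1), SAT1 (46.4), OAT (18.6), AZIN1 (10.7), ASL (5.04), ARG2 (4.69) and ASS1 (2.96). ASS1 had the lowest level of the 10 in controls and stood above ASL, AZIN1 and ARG2 by mean with TGF-β1. These orders are of RPKM, which divides by the length of all annotated exons of a gene, and they depend on that length. With TGF-β1 the values of ASS1, ASL and AZIN1 overlapped, as did those of SMS and ODC1. In controls the values of SMS, ODC1 and SAT1 overlapped, as did those of ASL and ARG2.

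Library scaling moved several of these calls. The 6 ratios of transcript levels within a library that are set side by side here were part of the plan. Multiplying a library by 1 factor leaves such a ratio as it is, whereas quantile normalisation can change it. With 2 libraries against 2, the smallest exact two-sided permutation p is 0.33, so the ratios carry no test that could pass. ASS1 to ASL was 1.09 and 1.25 with TGF-β1 and 0.528 and 0.660 in controls, so ASS1 had the higher RPKM of the pair only in the TGF-β1 libraries. OAZ1 to ODC1, antizyme against its target, was 4.48 and 4.80 with TGF-β1 and 2.72 and 2.58 in controls, 1.75-fold higher by group mean. AZIN1 to OAZ1, the inhibitor against antizyme, was 0.0545 and 0.0556 with TGF-β1 and 0.0791 and 0.0882 in controls. SAT1 to ODC1, breakdown against synthesis, was 1.54 and 1.74 with TGF-β1 and 1.02 and 0.920 in controls. SRM to SMS was 3.28 and 2.65 with TGF-β1 and 2.27 and 1.88 in controls, and ARG2 to OAT was 0.342 and 0.394 with TGF-β1 and 0.251 and 0.253 in controls. None of the 6 ratios overlapped between the groups, and groups that do not overlap keep their side whichever library is left out. Of single tested genes, 54.1% did not overlap either, and no such share was computed for other pairs of genes. Several of the ratios share OAZ1 or ODC1, and the genes were chosen with this comparison known, so nothing is read from their count.

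**Figure D3:**
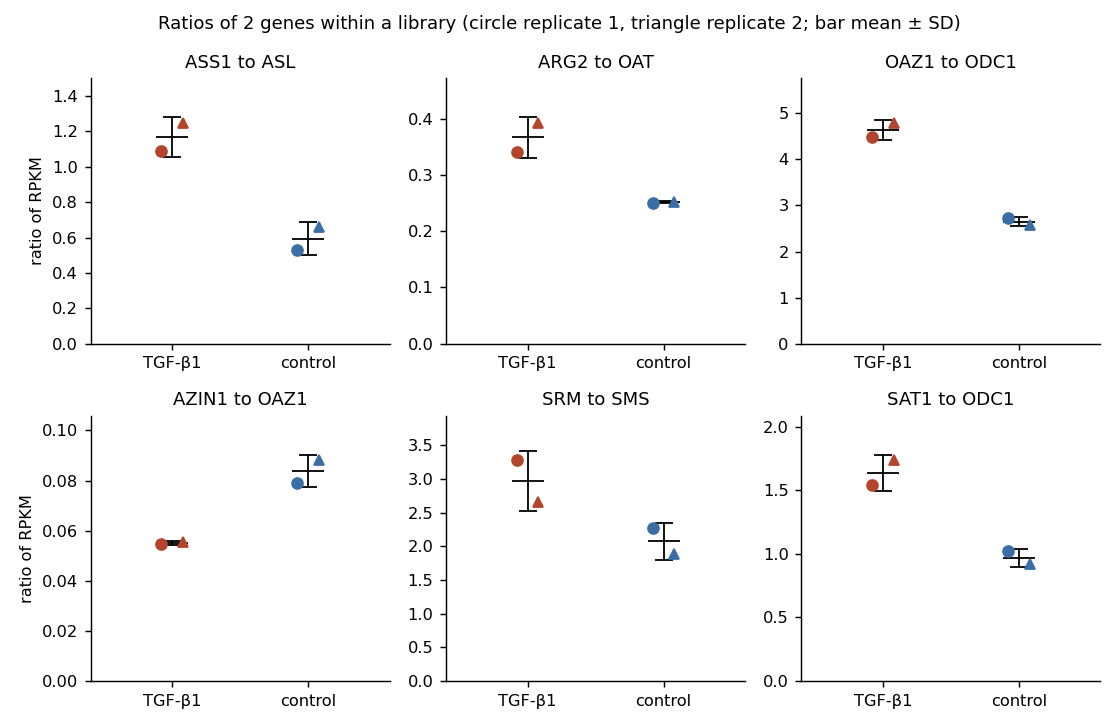
Ratio of the RPKM of 2 genes in the same library (y axis, from 0) in TGF-β1 and control libraries, circles for replicate 1 and triangles for replicate 2, with mean ± SD (n = 2 each). OAZ1 to ODC1 averaged 4.64 with TGF-β1 and 2.65 in controls, and AZIN1 to OAZ1 averaged 0.0551 with TGF-β1 and 0.0836 in controls.

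Beyond these 10, 65 genes of the surrounding pathways were listed, and 47 of them were tested. Of the 47, 7 rose and 4 fell with TGF-β1, where 6.12% of all tested genes rose and 3.0% fell. These shares are also the background for the counts of each list given next, and the lists were chosen with results of this comparison known. The 47 had a median log2 fold change of -0.02 against 0.03 over all tested genes. With scaling by total recovered reads 4 rose and 5 fell. Over the whole table that scaling gave 655 higher and 883 lower genes and quantile normalisation 697 higher and 687 lower, against 1015 higher and 498 lower with the authors' scaling. Scaling by total recovered reads shifted the median over all tested genes by -0.15 on the log2 scale.

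Polyamine synthesis, breakdown, control and transport had 11 tested genes, of which 2 rose and 1 fell. SMOX, spermine oxidase, which turns spermine back into spermidine, had 67.6 and 78.6 RPKM with TGF-β1 and 18.6 and 22.4 RPKM in controls. It rose 3.57-fold, with a log2 fold change of 1.81 (SE 0.12, adjusted p = 0.00319, limma), as large a change as that of ASS1. ATP13A2, a lysosomal polyamine transporter, had 39.9 and 43.1 RPKM with TGF-β1 and 11.6 and 14.6 RPKM in controls, a 3.16-fold rise (log2 1.63, SE 0.12, adjusted p = 0.00407, limma). The calls of SMOX and ATP13A2 held under all 14 alternative settings. SLC18B1, a vesicular polyamine transporter, fell to 0.837 and 0.565 RPKM with TGF-β1, against 2.23 and 2.13 RPKM in controls, on 8 and 6 reads against 18 and 24 reads (adjusted p = 0.0473, limma). That call was lost whichever library was left out (adjusted p = 0.0961 to 0.181) and with a replicate block (0.0719). AMD1, which supplies the aminopropyl groups of spermidine and spermine, had 20.2 and 17.0 RPKM with TGF-β1 and 15.4 and 17.8 RPKM in controls, and the antizyme OAZ2 had 10.9 and 9.56 RPKM with TGF-β1 and 9.02 and 10.6 RPKM in controls (adjusted p = 0.501 and 0.828, limma).

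Of 11 tested genes of arginine uptake, the urea cycle and arginine use, 2 rose and 1 fell. DDAH1 clears the methylarginines that inhibit nitric oxide synthases, and DDAH2 is its relative. DDAH2 rose 1.68-fold, with 45.8 and 37.9 RPKM with TGF-β1 and 24.0 and 25.9 RPKM in controls (log2 0.73, adjusted p = 0.0227, limma). DDAH1 fell to 5.39 and 5.74 RPKM with TGF-β1, against 10.2 and 14.4 RPKM in controls (log2 -1.05, adjusted p = 0.0307, limma). The locus AC092807.3 overlaps 8.38% of the exon bases of DDAH1 on the same strand, with 22 and 19 reads with TGF-β1 and 10 and 18 reads in controls. NOSIP, which binds nitric oxide synthase, rose 1.49-fold, to 23.5 ± 2.0 RPKM with TGF-β1 against 15.8 ± 0.55 RPKM in controls (SD, n = 2 each; log2 0.56, adjusted p = 0.0288, limma). DDAH1 lost its call without either TGF-β1 replicate (adjusted p = 0.0783 and 0.0737), DDAH2 without TGF-β1 replicate 1 or control replicate 1 (0.0526 and 0.0537), and NOSIP whichever library was left out (0.0512 to 0.13). With scaling by total recovered reads DDAH2 and NOSIP missed the threshold (0.052 and 0.0522). The nitric oxide synthase genes had at most 3 reads in any library. SLC7A1, the main cationic amino acid carrier, had 27.5 and 28.3 RPKM with TGF-β1 and 24.1 and 22.4 RPKM in controls and did not pass (adjusted p = 0.108, limma).

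Among 11 tested genes of ornithine, proline and glutamate metabolism, 1 rose and 1 fell. PYCR1, the mitochondrial reductase that makes proline, rose 1.42-fold, at 83.2 and 85.5 RPKM with TGF-β1 and 56.8 and 62.0 RPKM in controls (log2 0.50, adjusted p = 0.0186, limma). ALDH18A1, which makes the shared precursor of ornithine and proline from glutamate, fell to 13.8 and 13.7 RPKM with TGF-β1, against 19.9 and 20.4 RPKM in controls (log2 -0.53, adjusted p = 0.0202, limma). MYADML2 overlaps 14.1% of the exon bases of PYCR1 on the same strand. PYCR1 lost its call without TGF-β1 replicate 1 (adjusted p = 0.0538) or 2 (0.0743), and ALDH18A1 without TGF-β1 replicate 1 (0.0845), TGF-β1 replicate 2 (0.0971) or control replicate 2 (0.0533).

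Of 9 tested genes of methylthioadenosine salvage and S-adenosylmethionine supply, 0 rose and 1 fell, and that gene was also the only one of the list with an unadjusted p under 0.05. ENOPH1, a salvage enzyme, fell to 25.6 ± 1.1 RPKM with TGF-β1, against 33.9 ± 2.1 RPKM in controls (SD, n = 2 each; log2 -0.40, adjusted p = 0.0472, limma), a call lost whichever library was left out (adjusted p = 0.0587 to 0.174). Spermidine is also the donor for hypusine, a modified lysine found in the translation factor EIF5A. Of 5 tested hypusine genes, 2 rose and 0 fell, and EIF5A2 had the only lower mean (log2 -0.60, adjusted p = 0.162, limma), under 0.05 before adjustment. EIF5A rose 1.48-fold, at 447 and 462 RPKM with TGF-β1 and 298 and 317 RPKM in controls (log2 0.56, adjusted p = 0.0108, limma), although 14.5% of its 50-base words also occur in the near-identical copy EIF5AL1. DOHH, the hydroxylase of the last step, rose 1.43-fold, to 39.1 ± 4.5 RPKM with TGF-β1 against 27.4 ± 0.016 RPKM in controls (SD, n = 2 each; log2 0.50, adjusted p = 0.0409, limma), and its call was lost without TGF-β1 replicate 1 (adjusted p = 0.128) or either control replicate (0.0854 and 0.0832) and under each of the 4 other scalings (0.0525 to 0.14).

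**Figure D4:**
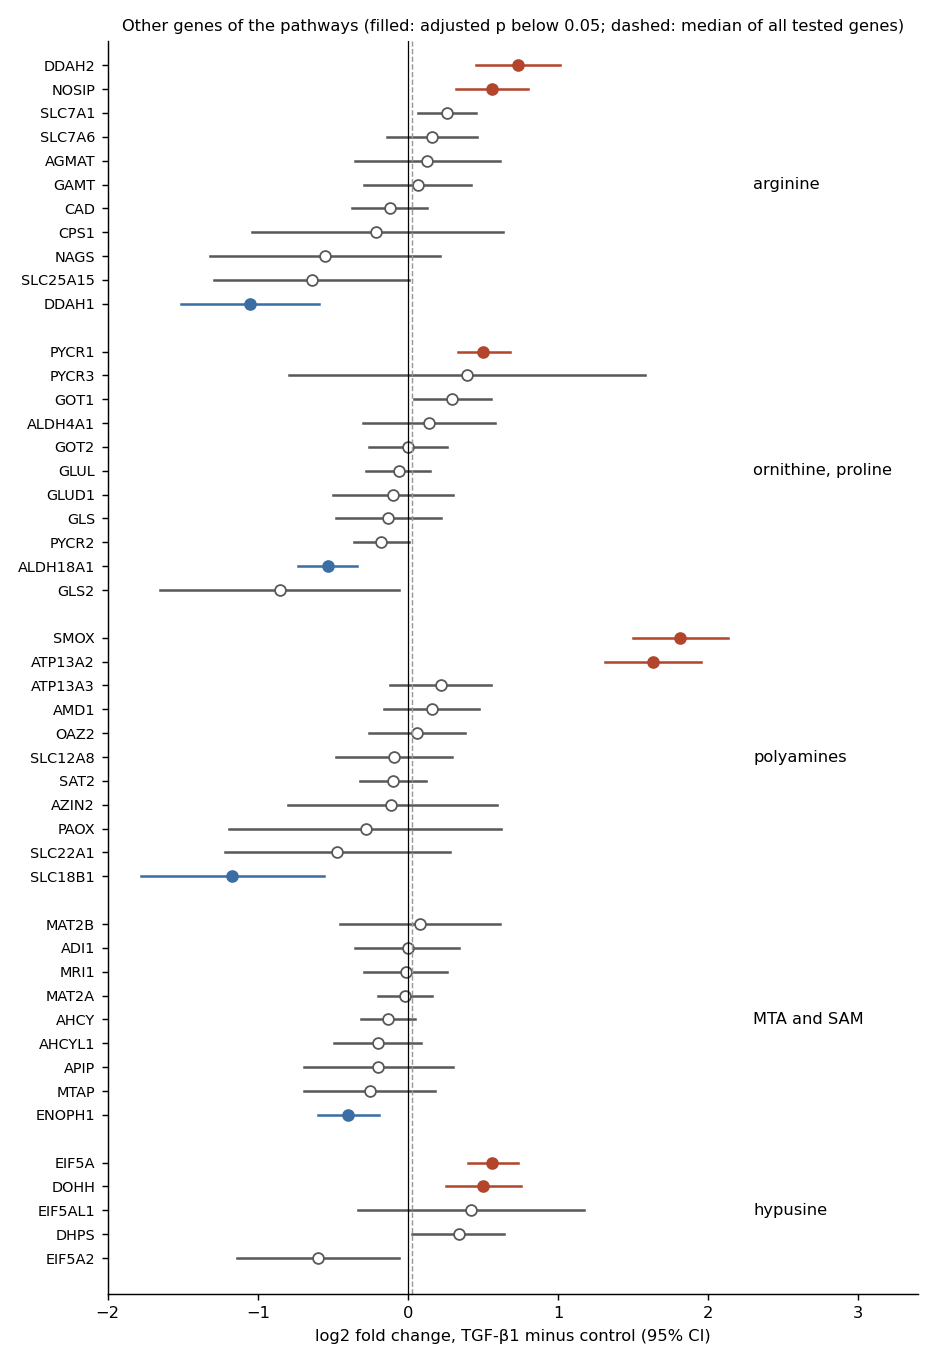
Log2 fold change (x axis, TGF-β1 minus control) with 95% confidence interval for the 47 tested genes of the 5 pathway lists, sorted within each list. Filled points passed an adjusted p below 0.05, open points did not, and SMOX (1.81) and ATP13A2 (1.63) lie furthest to the right.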

How the data were processed

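Per the labels' protocols, total RNA came from a TRIzol extraction and a directional NEBNext kit was used for the libraries. Named in the submitters' processing notes, with no roles, are hg38, DESeq2, STAR 2.7.1a and bcl2fastq 2.20.0.422. The deposited values are RPKM (reads scaled by exon length and library size), made by the authors from steps not given in the sources used here. Multiplied by GENCODE 29 exon lengths, the values fell on whole reads plus 0.5 within 0.01 read for 100% of the 23853 identifiers (93.1%) with the same version, and lengths were inferred from the values for 1635 more. Library sizes implied by the authors' scaling were 0.897 and 0.865 times the recovered totals with TGF-β1 and 1.02 and 0.98 times in controls, which raises TGF-β1 values.

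Genes averaging 0.5 RPKM or more were tested with limma 3.58.1 (R 4.3.3) on log2(RPKM + 0.5), with a variance trend and Benjamini-Hochberg adjustment over 16590 genes. The fit was tested on simulated data in which every change was larger than those of OAZ1 and SAT1. Smaller changes, and a difference in scaling between the groups, were not simulated. The 10 genes, the lists, the tests and the naming rule (all 10 genes, and the called genes of each list) were chosen with earlier results of these data known. AMD1, OAZ2, SLC7A1, EIF5A2 and marker genes were named after their values were seen. In all, 14 alternative settings were tried.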

Additional observations from a re-analysis of the deposited data

How the results depend on the processing

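The 14 settings varied the pseudocount, the filter, the scaling, the variance trend, the replicate block and the libraries, and ASS1, SMOX and ATP13A2 were called in all of them. Over the 10 genes and these settings, 116 of the fits gave the same call and direction, 18 lost a call, 4 gained 1 (all for ODC1) and 2 turned the sign (SRM, -0.08 after quantile normalisation and -0.02 with scaling by total recovered reads). Against 1513 genes called in the whole table, 4 of the 10 genes and 11 of the pathway lists, the counts were 977, 2 and 7 without the filter on low values, and 424, 1 and 2 without the variance trend. Leaving out each library in turn gave 574 to 1138 genes, 1 to 2 of the 10 genes and 3 to 6 genes of the lists, with the lone sample of a group assumed to vary like the other group. Fewer samples, or more genes in the adjustment, are part of these settings, and the cause of the other losses was not tested. Replicate numbers are shared by the titles, but nothing says that they pair samples, and the deviations of same-numbered libraries correlated at 0.0261 across genes. A fit with the replicate block called 1344 genes, 4 of the 10 genes and 10 of the lists. SLC18B1, ARG2 and ASS1 in controls rest on the fewest reads.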

Other observations

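The 3 further ratios within a library were computed after the values of the genes had been seen, for pairs of related genes whose transcripts differed in direction or size. DDAH2 to DDAH1 was 8.50 and 6.61 with TGF-β1 and 2.36 and 1.80 in controls, 3.63-fold higher by group mean and 3.18-fold to 4.19-fold when each library was left out in turn. PYCR1 to ALDH18A1, successive enzymes on the way from glutamate to proline, was 6.02 and 6.22 with TGF-β1 and 2.85 and 3.04 in controls, 2.08-fold higher. SMOX to SAT1, which open separate routes of spermine breakdown, was 1.15 and 1.22 with TGF-β1 and 0.405 and 0.476 in controls. SMOX thus had the higher RPKM only with TGF-β1. RPKM divides by the length of all annotated exons of a gene, so which gene of a pair is higher depends on that length. As with the other ratios, 2 libraries against 2 allow no test that could pass, and why they differ was not tested.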
